A study of Mus musculus with 4 samples.

Results

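The C-type lectin receptors of the Dectin gene clusters were followed between a pair of mouse macrophage cultures. The members are the 10 genes Clec4a1, Clec4a2, Clec4a3, Clec4b1, Clec4d, Clec4e, Clec4n, Clec7a, Clec9a and Clec12a, of 19938 genes named on the array, and each was read by 1 probe set that carries its symbol alone. Bone marrow cells of C57BL/6J mice, with no genetic change named in the labels, were grown for 7 days. The M1 group was conditioned by GM-CSF, the granulocyte-macrophage colony-stimulating factor, and its cells carried CD45, F4/80 and MHC class II and lacked CD8a in the sort. The M2 group received 20% supernatant of L929 fibroblasts, a source of M-CSF, the macrophage colony-stimulating factor, and its sorted cells carried CD45, CD11b and F4/80. Each group had 2 arrays, and the comparison asks how the receptor genes differ between the groups. Growth factor, the rest of the L929 supernatant and the sort gate differ together and cannot be told apart. Whether the replicates came from different mice or cultures is not stated in the labels, so p-values reflect the spread between these samples alone, which may be technical in the M2 pair.

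C-type lectin receptors are membrane proteins with which myeloid cells bind sugars and lipids of microbes and debris of dead cells. Activating members signal through the kinase Syk, either by a tyrosine motif in their own tail (Clec7a, Clec9a) or by pairing with the Fc receptor gamma chain Fcer1g (Clec4n, Clec4e, Clec4d, Clec4b1), and Syk engages the adaptor complex of Card9, Bcl10 and Malt1 that leads to cytokine genes. Inhibitory members (Clec4a2, Clec12a) carry a tail motif that recruits phosphatases such as Ptpn6.

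Promoter sequence is shown for members on both sides of the comparison. The RefSeq promoter table (GRCm38.p6) held 9 of the 10 members, all but Clec4n, and the 250 bases before the most upstream listed start were read, 5′ to 3′ on the gene's strand. Capitals mark GAGGAA on either strand (TTCCTC when read on the other), the core bound by ETS-family factors such as the myeloid regulator PU.1, a motif picked after the letters were seen. The Clec7a window lies at chr6:129472786-129473035 (minus strand) and Clec4e at chr6:123289872-123290121 (minus strand), and both rose in M1 cells. The Clec4b1 window lies at chr6:123049712-123049961 (plus strand), and the gene did not pass the test. The Clec4a2 window, at chr6:123122440-123122689 (plus strand), has no match, and the gene was lower in M1 cells.
Clec7a: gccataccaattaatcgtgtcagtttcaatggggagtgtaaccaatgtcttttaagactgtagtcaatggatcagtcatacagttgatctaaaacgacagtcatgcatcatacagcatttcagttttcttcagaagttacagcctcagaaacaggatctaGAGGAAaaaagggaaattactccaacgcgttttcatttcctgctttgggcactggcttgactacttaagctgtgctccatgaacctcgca
Clec4e: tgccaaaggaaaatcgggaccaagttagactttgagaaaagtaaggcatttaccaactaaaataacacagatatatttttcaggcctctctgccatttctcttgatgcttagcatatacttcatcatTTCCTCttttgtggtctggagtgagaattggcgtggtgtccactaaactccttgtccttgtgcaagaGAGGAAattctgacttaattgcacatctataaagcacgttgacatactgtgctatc
Clec4b1: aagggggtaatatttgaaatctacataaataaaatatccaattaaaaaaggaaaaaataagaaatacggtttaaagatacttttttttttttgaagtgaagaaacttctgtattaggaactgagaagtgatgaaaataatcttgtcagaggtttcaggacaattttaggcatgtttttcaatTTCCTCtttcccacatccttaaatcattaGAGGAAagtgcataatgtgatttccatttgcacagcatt
Clec4a2: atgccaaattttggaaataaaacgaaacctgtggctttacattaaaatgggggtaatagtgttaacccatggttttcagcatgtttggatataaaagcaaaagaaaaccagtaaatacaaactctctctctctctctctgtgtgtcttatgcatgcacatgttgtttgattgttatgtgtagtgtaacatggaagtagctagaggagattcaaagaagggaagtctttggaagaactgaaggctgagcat

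The motif stood in 6 of the 9 member windows (Clec4a1, Clec4b1, Clec4d, Clec4e, Clec7a and Clec12a), and in 23.1% of 27025 gene windows of the same length. It began 90 bases before the start in Clec7a, 123 and 56 bases before in Clec4e, and 68 and 39 bases before in Clec4b1. Members with a match lay on both sides of the comparison, though those that read lower (Clec4a1, Clec4b1 and Clec12a) did not pass the test. Members without a match were split as well (Clec9a higher, Clec4a2 lower, Clec4a3 not past the test). TTCNNNGAA, the form of site that STAT factors bind, was searched because GM-CSF signals through STAT5, and it stood in 1 of 9 member windows (Clec4a2) and in 7.14% of all windows. TGANTCA, the form bound by AP-1, stood in 1 of 9 (Clec12a) and in 6.85% of all. The searches covered both strands and allowed overlap between motifs. These are matches of letters and were not tested as binding sites.

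Values are log2 expression from RMA, a method that brings the probe values of all arrays to one distribution, and ran from 1.551 to 13.947 over the 4 arrays. Levels of different probe sets are not directly comparable, so each difference is taken for 1 gene across arrays. The background level and the summed levels given below draw on several probe sets and are only rough guides. The macrophage markers Ptprc (CD45), Itgam (CD11b), Adgre1 (F4/80), Csf1r, Cd68, Fcgr1 and Mertk all lay above background in both groups. None of the 7 passed the test. Both groups were sorted on CD45 and F4/80, and M2 cells on CD11b too, so those genes are no independent sign of identity. Background was taken as the 95th percentile of 1027 olfactory receptor genes, on average 5.90. Of 14995 genes past the filter on dim genes, 1605 (10.7%) passed limma's test at a Benjamini-Hochberg adjusted p under 0.05, 926 (6.18%) with M1 cells higher and 679 (4.53%) with M1 cells lower. With arrays centred on the medians of the genes tested the counts were 841 and 865. The M1 arrays were further apart than the M2 arrays, with an SD across genes of the log2 difference within a pair of 0.325 against 0.180. M1 replicate 1 also stood apart in Xist, a transcript of cells with an inactive X, at 11.58 there and from 4.53 to 4.93 on the other 3 arrays. The Y-linked gene Eif2s3y read 3.66 on that array and 9.10, 9.32 and 9.17 on M1 replicate 2 and M2 replicates 1 and 2. These are the levels of female cells on M1 replicate 1 and of male cells on the other 3 arrays, so the M1 arrays came from different mice, and sex differs within the M1 group and in part with the comparison. Without that array the members' differences shrank, down to -0.14 for Clec12a, except those of Clec4e and Clec4b1, which grew. All 10 members kept their direction, which was fixed in advance because the groups overlap in none of them.

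Clec7a, Clec4n, Clec4e and Clec4d, activating receptors for fungal and mycobacterial ligands, rose in M1 cells, as did Clec9a, while Clec4b1, the Clec4a members and Clec12a read slightly lower there. All 10 members passed the filter on dim genes. Of these, 5 were higher in M1 cells (Clec7a, Clec9a, Clec4n, Clec4e and Clec4d), by 1.75-fold to 10.9-fold, where 6.18% of all genes tested were called higher. The other 5 read lower by 1.40-fold to 1.52-fold, and 1 of them, Clec4a2, passed the test, where 4.53% of all genes were called lower. In all 10 members the arrays of the groups did not overlap, as in 55.4% of all genes tested, with both M1 arrays above in 5 members (26.3% of all genes) and below in 5 (29.2%). The median difference over the members was 0.16 on the log2 scale, against -0.01 over all genes tested, since the members split in direction.

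**Figure D1:**
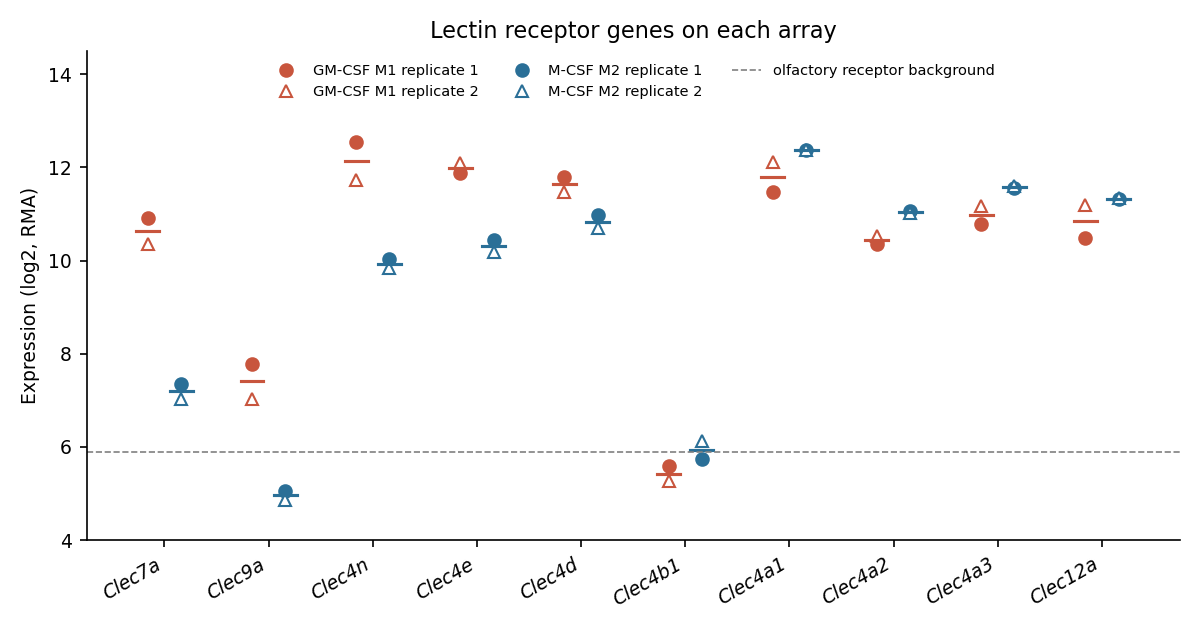
Log2 expression (RMA, vertical axis) of the 10 receptor genes on each array, with circles for replicate 1, triangles for replicate 2, a short line at each group mean and a dashed line at the olfactory receptor background of 5.90. Clec7a, Clec9a, Clec4n, Clec4e and Clec4d sit higher on both M1 arrays, and the other 5 genes sit higher on both M2 arrays by smaller distances.

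Clec7a encodes dectin-1, the receptor for beta-glucans of fungal cell walls, and had the widest difference among the members. It read 10.92 and 10.35 in M1 replicates 1 and 2 and 7.36 and 7.03 in M2 replicates 1 and 2. Both M1 arrays lay far above both M2 arrays, with 2.99 log2 units between the nearest arrays of the groups. The difference was 3.44 ± 0.21 (SE, n = 2 per group; 95% interval 2.92 to 3.96), a 10.9-fold rise (limma, adjusted p = 0.000511). It remained called with any single array left out, with differences from 3.16 to 3.73.

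Clec9a encodes DNGR-1, a receptor for actin filaments exposed by dead cells, known from the dendritic cells that cross-present antigen. It read 7.77 and 7.04 in M1 cells and 5.06 and 4.87 in M2 cells. The M2 values lay within the background range, so the size of the difference, 2.44 ± 0.24 (5.43-fold, limma adjusted p = 0.00236), depends on that background. The call was lost without M2 replicate 1 or replicate 2, where the difference was 2.54 and 2.35. Such a fit leaves only the wider M1 pair to set the spread, and far fewer genes of any kind pass it. Of 8 other markers of that dendritic cell type, 1 was higher in M1 cells (Naaa, an acid amidase of lysosomes, by 2.90). Another, the adhesion protein Cadm1, was lower by 0.47, and 5 of the 7 tested did not pass. Among all genes tested, 6.18% were called higher and 4.53% lower. Cadm1 lost its call without M2 replicate 1 (adjusted p = 0.339) or replicate 2 (0.207, limma). Xcr1, the chemokine receptor that defines the type, read 5.49 and 5.22 in M1 cells and 5.58 and 5.51 in M2 cells, within the background in both, and Itgae lay there too. Irf8, Wdfy4, Tlr3 and Batf3 lay above background on all 4 arrays and did not pass. The summed linear level of the list was 6992 and 5755 in M1 cells and 2958 and 2789 in M2 cells. That gap came mainly from Naaa, at 12.27 and 11.61 against 9.12 and 8.96 on the log2 scale. The other tested markers differed by -0.47 (Cadm1) to 0.30 (Tlr3). In such bulk samples, fewer cells of a type and less RNA per cell cannot be told apart.

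Clec4n, Clec4e and Clec4d, which pair with the Fc receptor gamma chain, all rose in M1 cells. Clec4n encodes dectin-2, which binds mannans of fungi, and read 12.54 and 11.73 in M1 cells and 10.04 and 9.83 in M2 cells. Its difference was 2.19 ± 0.26 (4.57-fold, limma adjusted p = 0.00465), and the M1 pair stood 0.81 apart, the widest spread within a group among the members. Clec4e encodes Mincle, the receptor for the mycobacterial cord factor and for a protein released by dead cells, and read 11.88 and 12.10 in M1 cells and 10.45 and 10.19 in M2 cells. The difference was 1.67 ± 0.14 (3.18-fold, limma adjusted p = 0.00136).

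Clec4d encodes MCL, which forms complexes with Mincle, and read 11.79 and 11.48 in M1 cells and 10.97 and 10.69 in M2 cells. Its arrays also did not overlap, with a smaller difference of 0.81 ± 0.16 (1.75-fold, limma adjusted p = 0.0259). Clec4e remained called with any single array left out (adjusted p up to 0.045, limma). Clec4n lost its call without M2 replicate 1 (0.0892) or replicate 2 (0.108), and Clec4d likewise (0.136 and 0.238, limma).

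Clec4b1, an activating receptor of the Clec4a and Clec4b subfamily also known as DCAR, lay near the background. It read 5.59 and 5.26 in M1 cells and 5.75 and 6.12 in M2 cells, so that 1 of the 4 arrays lay above the olfactory receptor level of its own array. The difference of -0.51 ± 0.17 did not pass (limma adjusted p = 0.128). Its close relative Clec4b2 read from 4.66 to 5.38 on the 4 arrays and did not pass the filter on dim genes.

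The 3 Clec4a members, DCIR and its relatives, read lower in M1 cells by nearly the same amount. Clec4a2 encodes DCIR itself, with its phosphatase-recruiting tail, and read 10.35 and 10.53 in M1 cells and 11.06 and 11.02 in M2 cells. The difference was -0.60 ± 0.12 (95% interval -0.88 to -0.32), which passed the test (limma adjusted p = 0.0254). The call was lost without M2 replicate 1 (0.233) or replicate 2 (0.204, limma). Clec4a3, the paralog Dcir3, read 10.78 and 11.16 against 11.55 and 11.60, a difference of -0.61 ± 0.15 that just missed the threshold (limma adjusted p = 0.053, and from 0.0298 to 0.0726 over the other settings with 4 arrays). Clec4a1, the paralog Dcir4, read 11.47 and 12.11 against 12.38 and 12.38, a difference of -0.59 ± 0.21 that did not pass (adjusted p = 0.14, limma). The Clec4a genes are close in sequence, and whether their probe sets also read each other's transcripts was not tested.

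Clec12a, the inhibitory receptor MICL for uric acid crystals, read 10.49 and 11.19 in M1 cells and 11.32 and 11.34 in M2 cells. The nearest arrays of the groups were 0.13 apart while the M1 pair was 0.70 apart. The difference of -0.49 ± 0.22 (95% interval -1.03 to 0.06) did not pass (limma adjusted p = 0.243). Leaving out M1 replicate 1 gave -0.14 and leaving out M1 replicate 2 gave -0.84, and Clec4a1 moved likewise, from -0.27 to -0.91. M1 replicate 1 was the array further from the M2 mean in 8 of the 10 members (80.0%), as it was in 61.5% of the 1605 genes called. The exceptions were Clec4e and Clec4b1.

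**Figure D2:**
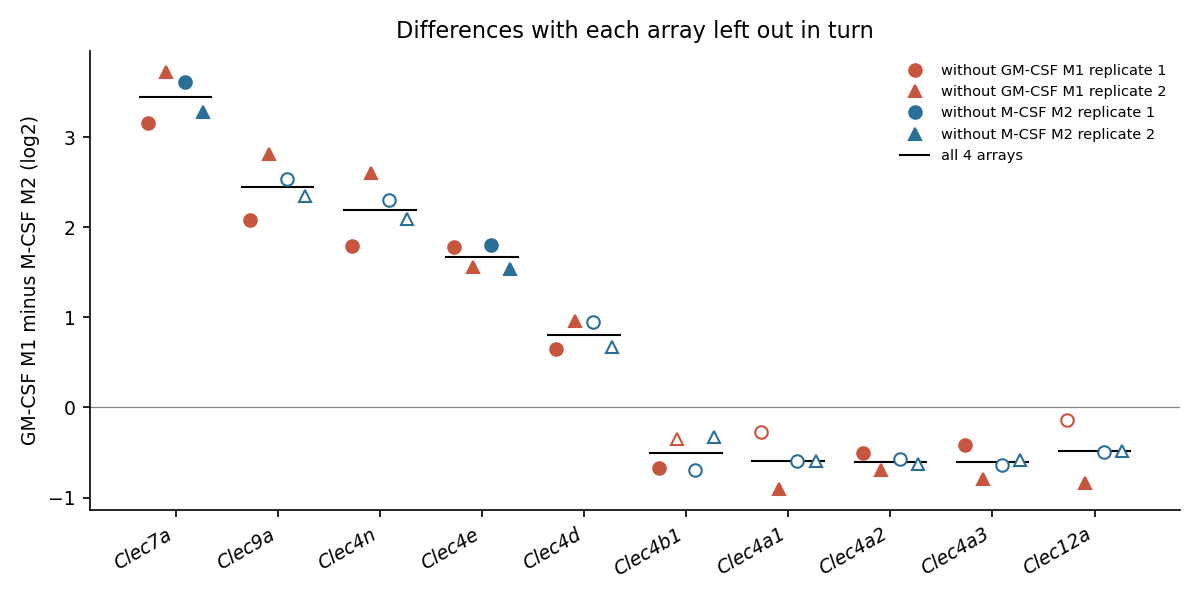
M1 minus M2 difference (log2, vertical axis) of each receptor gene with all 4 arrays (black lines) and with each array left out in turn (points), where a filled point has a limma adjusted p under 0.05 and an open point does not. Every point keeps the sign of its line, which was fixed in advance because the groups overlap in none of these genes.

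In the Dectin-2 cluster on chromosome 6 the genes that read lower and those called higher lay at opposite ends. In the RefSeq gene order (GRCm38.p6, used for order alone) the cluster's 9 lectin genes follow each other with no other protein-coding gene between them, from Clec4a1 through Clec4a3, Clec4a4, Clec4b1, Clec4a2, Clec4b2, Clec4n and Clec4d to Clec4e. The 5 tested genes at the Clec4a end all read lower in M1 cells, and 2 of them passed the test. The 3 genes at the Clec4e end were all called higher. Clec4a4, the further DCIR paralog Dcir2, read 5.16 and 6.00 in M1 cells, near background, and 7.54 and 7.49 in M2 cells, a difference of -1.93 ± 0.26 (limma adjusted p = 0.00721). Its call was lost without M2 replicate 1 (0.127) or replicate 2 (0.126, limma). The gene just outside the Clec4a end, Necap1, a clathrin coat factor, was lower too, by 0.68 (limma adjusted p = 0.0203; 0.215 and 0.163 without M2 replicates 1 and 2), and the next, C3ar1, the C3a receptor, differed by -0.24 without passing. The flanking genes were looked up after the members' values were seen, and their order was not tested.

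The Dectin-1 cluster, also on chromosome 6, showed a mixed order. From Clec12a to Olr1 it holds 7 lectin genes, of which Clec12b, Clec1b and Clec1a did not pass the filter on dim genes. Clec9a and Clec7a were called higher and Clec12a did not pass. Olr1, the oxidised LDL receptor LOX-1 and the neighbour of Clec7a, read 10.02 and 9.30 in M1 cells and 5.67 and 5.66 in M2 cells, where it lay within the background range. Its difference was 3.99 ± 0.23 (15.9-fold, limma adjusted p = 0.000381). Beyond Olr1, Gabarapl1, an autophagy gene, differed by 0.68 without passing (adjusted p = 0.0509, limma).

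**Figure D3:**
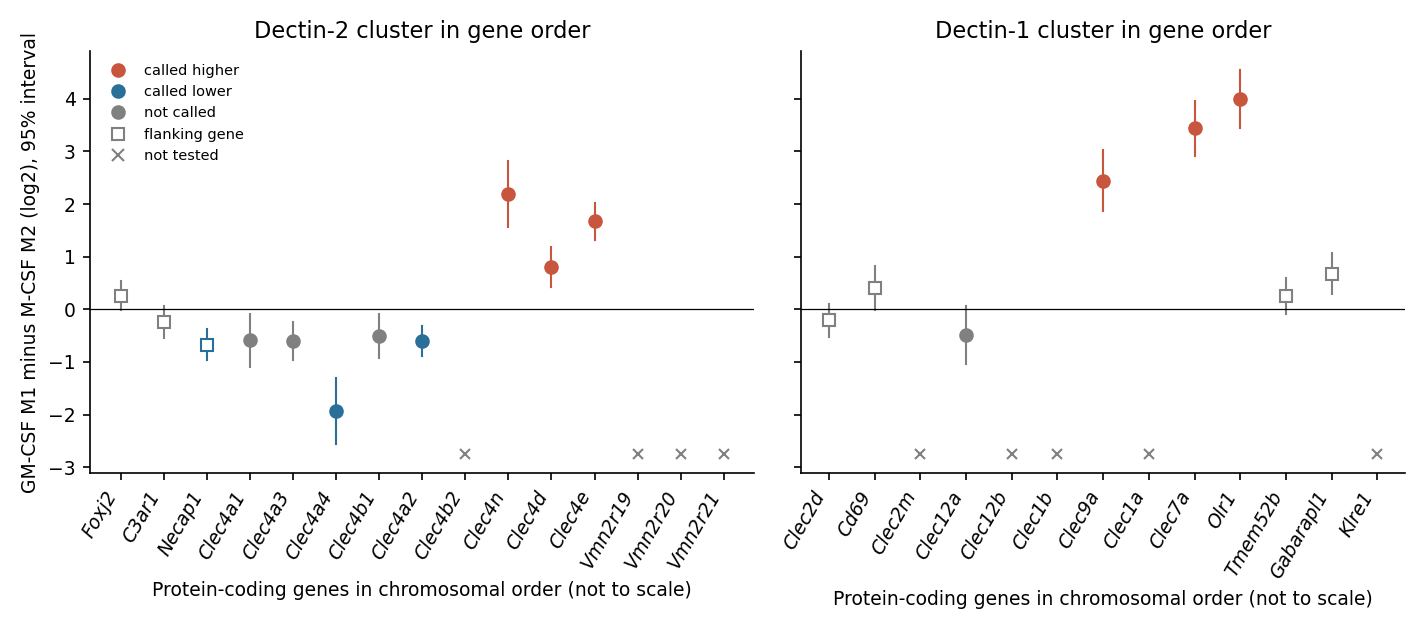
M1 minus M2 difference (log2, vertical axis, with 95% intervals) of protein-coding genes in chromosomal order across the Dectin-2 and Dectin-1 clusters, with 3 flanking genes on each side as open squares and crosses along the bottom for genes not tested. In the Dectin-2 cluster the genes from Clec4a1 to Clec4a2 lie below 0 and those from Clec4n to Clec4e lie above it.

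The signalling genes shared by the activating receptors mostly did not pass the test, as was true of most genes tested (6.18% called higher, 4.53% lower). Of 22 listed Syk and Card9 pathway genes, 19 were tested, 2 were higher in M1 cells, 2 lower and 15 did not pass (the others were not analysed here). Fcer1g, the gamma chain, read from 12.88 to 12.97 on the 4 arrays, with a difference of -0.06 ± 0.10 (0.03 after quantile normalization). The related adaptor Tyrobp differed by -0.03 ± 0.11 (0.02 without M1 replicate 2). Syk differed by -0.24 ± 0.13 and Card9 by 0.31 ± 0.11, neither past the test. Malt1, the protease of the Card9 complex, rose from 7.50 and 7.35 in M2 cells to 10.16 and 9.69 in M1 cells, a difference of 2.50 ± 0.17 (limma adjusted p = 0.000698). Its partner Bcl10 differed by 0.24 ± 0.11 and did not pass. Src, the kinase, was higher by 1.20 ± 0.12 (adjusted p = 0.00261; 0.0635 without M2 replicate 2, limma). The transcription factor Nfatc2 was lower by 1.15 ± 0.18 (adjusted p = 0.0138; 0.146 and 0.182 without M2 replicates 1 and 2, limma). Lcp2, the adaptor SLP-76, was lower by 0.44 ± 0.10 at the edge of the threshold (adjusted p = 0.0493; 0.0727 with no filter, 0.26 and 0.306 without M2 replicates 1 and 2, limma).

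Among 6 partners of inhibitory receptors, 1 was higher and 5 did not pass, where 6.18% of all genes tested were called higher. Ptpn6, the phosphatase SHP-1, read 10.37 and 10.80 in M1 cells and 10.75 and 10.79 in M2 cells, a difference of -0.19 ± 0.16 whose sign turned without M1 replicate 1 (0.03). Dok2, an adaptor that restrains tyrosine kinase signals, was higher by 1.03 ± 0.11 (adjusted p = 0.00377; 0.068 and 0.0879 without M2 replicates 1 and 2, limma).

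Several genes that these receptors are known to induce were higher in M1 cells. Of 16 listed, 13 were tested, 7 were higher, 0 lower and 6 missed the threshold, where 6.18% of all genes tested were called higher and 4.53% lower. The median difference was 0.92 against -0.01 over all genes tested. The list was drawn up with results of these samples known, so its direction is not independent evidence. Whether signals of the receptors had a part in these differences was not tested. Il6, a cytokine, was higher by 3.80 ± 0.25, Egr2, an early response transcription factor, by 3.56 ± 0.27, Il1b, a cytokine, by 2.73 ± 0.12, Ptgs2, the prostaglandin enzyme COX-2, by 2.44 ± 0.15 and Cxcl2, a neutrophil chemokine, by 2.15 ± 0.17 (limma adjusted p from 0.000159 to 0.00108). The chemokine genes Cxcl1 and Ccl2 were called as well, and both lost the call without M2 replicate 1 (adjusted p = 0.0908 and 0.304) or replicate 2 (0.0797 and 0.267, limma). The M2 mean of Il6 and Egr2 lay within the background range. Tnf, Ccl3, Egr3, Il12b and Nfkbiz did not pass, with differences of 0.09, 0.09, 0.23, 0.89 and -0.76. Il10, an anti-inflammatory cytokine, read 5.34 and 7.77 in M1 cells and 8.58 and 8.68 in M2 cells and did not pass (difference -2.08, limma adjusted p = 0.125). Its difference was -0.86 without M1 replicate 1 and -3.29 without M1 replicate 2.

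Other C-type lectin receptors also split in direction. Of 32 listed, 23 were tested, 4 were higher in M1 cells (Olr1, Ly75, Clec5a and Cd302) and 2 lower (Cd209f and Clec4a4). The other 17 did not pass, and the median difference was -0.07. The shares over all genes tested were 6.18% higher and 4.53% lower. Clec5a, an activating receptor that signals through Tyrobp, read 9.45 and 9.20 in M1 cells and 7.14 and 6.85 in M2 cells, a difference of 2.33 ± 0.15 (limma adjusted p = 0.00057). Ly75, the endocytic receptor DEC-205, was higher by 2.39 ± 0.13 (adjusted p = 0.00033, limma). Cd302 was higher by 0.61 ± 0.13 (adjusted p = 0.032; 0.132 and 0.251 without M2 replicates 1 and 2, limma). Cd209f, a relative of DC-SIGN, was lower by 2.15 ± 0.13, but its level reached only 5.91 and 5.71 in M2 cells, about the background. The macrophage galactose lectins Clec10a and Mgl2 were split between the M1 replicates, with 7.02 and 4.78 for Clec10a and 9.47 and 5.87 for Mgl2, and did not pass.

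**Figure D4:**
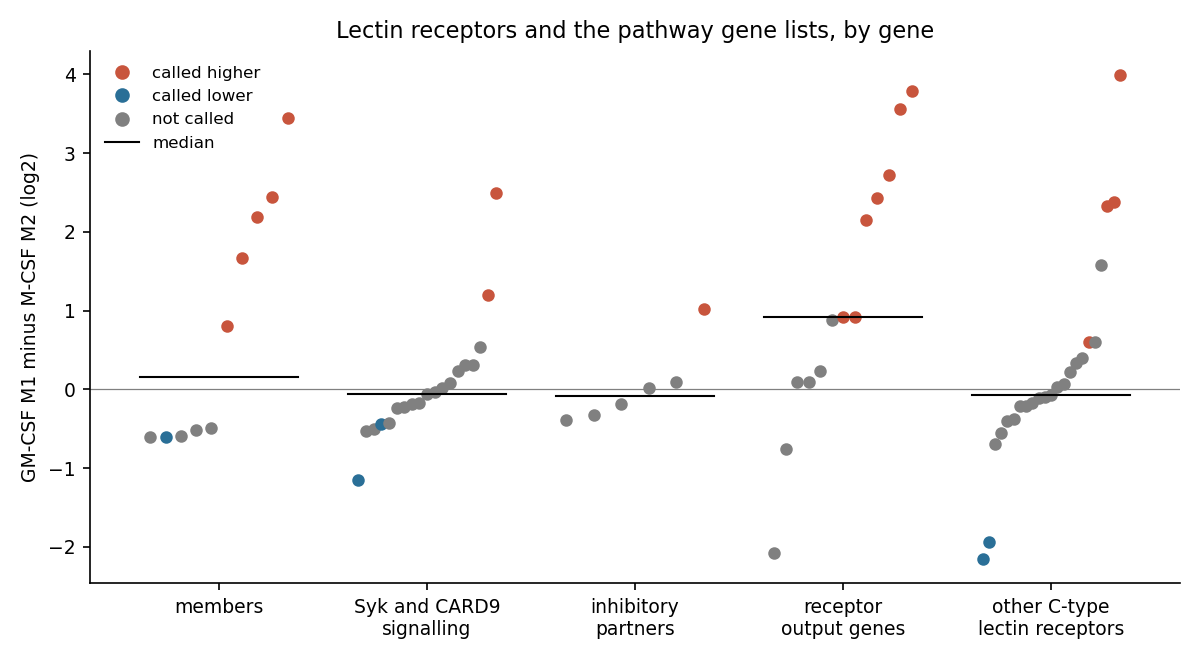
M1 minus M2 difference (log2, vertical axis) of each tested gene of the receptor members and of the 4 pathway lists (horizontal axis), coloured by its limma call, with a black line at each median. The receptor members separate into 5 genes above 0.80 and 5 below -0.48, while most of the Syk and CARD9 genes lie near 0.

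A few markers of other myeloid cells were also higher in M1 cells. The counts below stand beside 6.18% of all genes tested called higher and 4.53% called lower. Of 10 neutrophil markers, 8 were tested, 2 were higher in M1 cells (the proteases Mmp8, by 3.87, and Mmp9, by 1.00) and 6 did not pass. Mmp8 lost its call without M2 replicate 2 (adjusted p = 0.0676), and Mmp9 without M2 replicate 1 (0.0626) or 2 (0.082, limma). The summed linear level of the neutrophil list was 10244 and 5304 in M1 cells and 1811 and 1509 in M2 cells. That gap came mainly from Mmp8, at 12.91 and 11.78 against 8.75 and 8.20 on the log2 scale. The defining marker Ly6g read 6.18 and 5.45 in M1 cells and 4.49 and 5.10 in M2 cells without passing, and Retnlg and Cxcr2 were at background on all arrays. Ngp, S100a8 and S100a9 lay above background on all 4 arrays and did not pass. By group mean, 7 of the 10 neutrophil markers lay above background in M1 cells and 5 in M2 cells. Of 6 monocyte markers 3 were analysed here, and Ccr2 (by 2.997) and Chil3 (by 3.56, with its M2 mean within the background range) were higher, the latter not without M2 replicate 1 (0.0596) or 2 (0.0772, limma). The summed linear level of those 3 was 2149 and 1291 against 497 and 304. In both lists M1 replicate 1 read above replicate 2. The lymphocyte and the mast cell and basophil lists had 1 tested gene each and 0 called, with summed linear levels of 189 to 206 and 152 to 189 over the arrays. The plasmacytoid dendritic cell list had 4 tested genes, none of which passed, and summed levels of 1168 to 1680. Of 7 general dendritic cell markers 2 were higher, the integrin Itgax by 4.53, with its M2 mean within the background range, and the chemokine receptor Ccr7 by 1.16, while Flt3 read from 4.93 to 5.44, within the background range. Ccr7 lost its call without M2 replicate 1 (0.0945, limma). Of 5 fibroblast markers 1 was higher (Dcn, by 1.07), though not without M2 replicate 1 (0.202) or 2 (0.318, limma). The M1 sort kept CD45+, F4/80+ and MHC class II+ cells and the M2 sort CD45+, CD11b+ and F4/80+ cells. The part of other cell types in the receptor differences was not tested.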

How the data were processed

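Per the labels' protocols, 300 ng of total RNA from the sorted cells was amplified by random priming and biotin-labelled for single-colour arrays. The authors deposited log2 expression per probe set, which the submitters' processing notes credit to RMA (Affymetrix Expression Console 1.1). RMA brings probe values of all arrays to one distribution, so changes in total RNA are not visible. For the genome build, nothing was given in the sources used here.

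Of 35556 probe sets, 21789 had exactly 1 gene symbol in the platform annotation. The probe set with the highest mean over 4 arrays stood for a gene. Genes with at least 2 arrays above that array's 30th percentile were tested (14995) by two-sided moderated tests (limma 3.58.1, R 4.3.3; residual degrees of freedom 2, prior 4.17), Benjamini-Hochberg adjusted over all of them at 0.05. SEs are moderated, and folds are powers of the log2 difference. The fit was run on simulated data in which all 4 arrays of a gene had the same spread. The M1 and M2 pairs differ in spread, so that run cannot show how well the calls hold here. Same-numbered arrays deviated together with r = 0.06 across genes, so the numbers were not taken as pairs. The number of arrays limits the precision. No detection calls or batches were analysed here.

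The members, gene lists and naming rule (all members, up to 5 called genes per list and direction, and genes of the clusters) were chosen with earlier results of these data known. Flanking genes of the clusters, Il10 and the other induced genes that did not pass, Clec10a, Mgl2, Bcl10 and single markers were named after their values were seen. Alternatives were other filters, normalizations, probe set means, a replicate block, variances that were trended and robust, a threshold of 0.01 and leaving out each array. Centring on the genes tested was added after seeing the data. Python 3.11.15, pandas 2.3.3 and matplotlib 3.10.9 made tables and plots.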

Additional observations from a re-analysis of the deposited data

How the results depend on the processing

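All 10 members kept their direction in every alternative run for them (12 for Clec4b1, which did not pass the stricter filter, and 13 for the others). With an array left out this was fixed in advance, because the groups overlap in none of the members. Clec7a and Clec4e also kept their call in all 13. The count of members called higher was 5 in every alternative with 4 arrays except an adjusted p of 0.01, which gave 4, and it ran from 2 to 5 with an array left out. The count called lower was 1 and became 2 with the stricter filter, quantile normalization, trended and robust variances and centring on the genes tested, by the addition of Clec4a3, and 0 at an adjusted p of 0.01. With the replicate block it was 2, again with Clec4a3, and the block changed no other call among the members. With an array left out it ran from 0 to 4. The genes called of all tested numbered 1605, 661 at an adjusted p of 0.01, and from 233 to 3205 with an array left out. Leaving out an M1 array leaves only the tighter M2 pair to set the spread, and those fits gave the higher counts, so they add no weight to a call. Leaving out an M2 array leaves only the wider M1 pair, and those fits gave the lower counts. A call lost there is thus not particular to that gene. The 18 pathway list genes called became 10 to 32 in those fits. The sign turned for Fcer1g with quantile normalization (0.027), and with an array left out for Tyrobp (from -0.091 to 0.023) and Ptpn6 (from -0.398 to 0.026), where the positive values were not past the test; the cause was not tested. Ccl2, called higher by 0.92, lost its call with no filter (adjusted p = 0.0546), quantile normalization (0.0654), centring on the genes tested (0.0536) and trended and robust variances (0.0605, limma). Lcp2, called lower by 0.44, lost its call with no filter (0.0727), arrays centred on their medians (0.0572) and the replicate block (0.0699, limma adjusted p). Signals of Clec4b1 and Cd209f, of Clec4a4 in M1 cells, and of Clec9a, Olr1, Il6, Egr2, Itgax and Chil3 in M2 cells, lay near background, which limits the precision of their differences.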
